A study of Mus musculus with 4 samples.

Results

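The 10 genes described here belong to the p53 pathway and were followed across the cell types of subcutaneous Lewis lung carcinoma (LLC) tumors: Cdkn1a, Mdm2, Ccng1, Phlda3, Eda2r, Aen, Trp53inp1, Bax, Zmat3 and Trp53 itself. They are 10 of the 18605 genes common to the 4 count tables, and each symbol occurred once per table. They were selected on their place in the pathway and with the irradiated to control values of these same libraries in view, so those values describe the genes and test nothing. Female mice of the C57/BL6N strain, 6 to 8 weeks old, carried tumors of LLC, a cell line from a lung carcinoma of this strain. The control group (NT, mock treated) was 1 library made from 3 tumors. Radiotherapy (RT) was represented by 3 libraries, here RT1, RT2 and RT3 and always listed in that order, from tumors given 24 Gy as 3 fractions of 8 Gy on days 7 to 9 after injection, once their mean volume had reached 100 mm3. All tumors were taken 72 h after treatment.

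p53 is a transcription factor that is kept low by Mdm2, a ubiquitin ligase that marks it for degradation. DNA damage, as ionizing radiation causes it, frees p53 from Mdm2, and p53 then activates genes for cell cycle arrest, apoptosis, repair and its own restraint. Much of this control acts on the p53 protein, which single-cell RNA sequencing does not measure, while RNA of its target genes is counted directly.

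The tables held 69667759 unique molecular identifiers (UMIs, counts of single RNA molecules) in NT and 78585759, 108699844 and 85660188 across RT1 to RT3. After filtering, 9976 cells of NT and 15029, 14993 and 15060 cells of the RT libraries remained, with a median of 5709 UMIs per cell in NT and 3864, 5200.0 and 4158 across RT1 to RT3. Between 182 and 277 cell barcodes were shared by each pair of libraries. Cells were assigned to types by marker genes, with the 10 genes and the wider p53 lists left out of the clustering. Tumor cells numbered 7149, 7774, 7162 and 8932 in NT, RT1, RT2 and RT3, macrophages 703, 2614, 2547 and 1478, monocytes 563, 1970, 2158 and 1931, and lymphocytes 381, 359, 601 and 341. Tumor cells held UMIs of all 6 tumor markers, led by Rhox5, in every library. All 7 macrophage markers were detected in macrophages and all 9 lymphocyte markers in lymphocytes. The RT2 table stood apart in form, since it listed 18605 genes where the others listed 32285, and its highest share of mitochondrial UMIs in a barcode was 11.95%.

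UMIs were summed per library and cell type and are given as CPM, the gene's UMIs scaled to the total of that cell type in that library. A ratio is log2 of the RT level over the NT level with 0.5 UMI added to each sum, and the mean ± SD is over the 3 RT libraries. A gene was called higher or lower when every RT library differed from NT by at least 1.5-fold in the same direction. Genes with fewer than 10 expected UMIs in any library were given levels but no ratio. Expected UMIs were taken at the mean of the NT level and the mean RT level. A gene with few UMIs in NT could thus pass through its RT level, as Phlda3 did in macrophages with 3 UMIs in NT. Counts of genes measured or called higher include such genes. NT was a single library, so no test between NT and RT was possible, and any error in NT moves all 3 ratios together. Intervals in brackets are exact Poisson intervals at 95% and cover counting error only.

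The promoter windows of the genes are shown first, because these genes are grouped by the factor that binds near them. RefSeq windows of 300 bases, from 250 before to 50 after a gene start on GRCm38.p6, were on hand for 8 of the 10 genes, in 10 windows. They were searched for the p53 response element, a pair of 10-base units side by side that reads the same on both strands, and the best match is in capitals. Among all 32851 windows, 0.0883% held the 20-base element with at most 1 mismatch and 6.29% with at most 3. The upstream start of Cdkn1a and the start of Ccng1 each held a match with 1 mismatch. Aen, Bax and Trp53 held matches with 3 mismatches, and the windows of Mdm2, Phlda3 and the downstream start of Cdkn1a had none closer than 5, which 76.6% of all windows reach. The window of Eda2r had none closer than 6. A match describes the letters and is not evidence of binding here. The windows of Cdkn1a (chr17:29090729-29091028, plus strand), Ccng1 (chr11:40755237-40755536, minus strand) and Aen (chr7:78895677-78895976, plus strand) show the closest matches and a looser one:
Cdkn1a: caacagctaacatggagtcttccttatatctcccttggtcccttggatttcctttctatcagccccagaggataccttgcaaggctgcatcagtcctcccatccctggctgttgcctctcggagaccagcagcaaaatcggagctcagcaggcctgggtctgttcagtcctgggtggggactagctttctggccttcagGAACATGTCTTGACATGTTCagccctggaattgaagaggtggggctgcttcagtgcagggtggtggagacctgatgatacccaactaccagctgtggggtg
Ccng1: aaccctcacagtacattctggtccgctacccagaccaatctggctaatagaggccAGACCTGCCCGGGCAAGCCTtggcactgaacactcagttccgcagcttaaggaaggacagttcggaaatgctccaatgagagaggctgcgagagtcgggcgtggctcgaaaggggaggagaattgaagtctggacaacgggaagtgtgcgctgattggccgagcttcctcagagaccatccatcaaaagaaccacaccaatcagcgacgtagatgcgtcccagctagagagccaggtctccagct
Aen: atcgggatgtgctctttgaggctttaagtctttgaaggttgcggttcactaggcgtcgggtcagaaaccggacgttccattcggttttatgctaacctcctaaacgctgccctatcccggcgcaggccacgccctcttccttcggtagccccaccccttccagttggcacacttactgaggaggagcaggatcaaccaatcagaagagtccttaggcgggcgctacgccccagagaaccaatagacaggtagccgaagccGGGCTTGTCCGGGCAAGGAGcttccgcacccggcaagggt

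Cdkn1a encodes p21, the inhibitor of cyclin-dependent kinases through which p53 halts the cell cycle. Among cell types with at least 50 cells in a library, its lowest levels were in tumor cells. They were 18.8 CPM (17.7 to 19.9) in NT and 39.7, 34.1 and 31.9 CPM across RT1 to RT3. Macrophages held 302 CPM (281 to 324) in NT and 1354, 2044 and 1264 CPM in the RT libraries. Monocytes held 492 CPM in NT against 934, 996 and 643 CPM in the RT libraries. In these 3 cell types every RT library lay above NT. Lymphocytes held 74.9 CPM (57.9 to 95.3) in NT and 417, 604 and 371 CPM across RT1 to RT3, without overlap. In dendritic cells NT had 549 CPM and the RT libraries 821, 1053 and 532 CPM, so RT3 lay just below NT. The log2 ratio was 2.59 ± 0.37 (SD, n = 3 RT libraries) in lymphocytes and 2.33 ± 0.38 in macrophages, 6.01-fold and 5.03-fold as means on the log scale. It was 0.90 ± 0.16 in tumor cells, 0.77 ± 0.34 in monocytes and 0.49 ± 0.50 in dendritic cells.

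**Figure D1:**
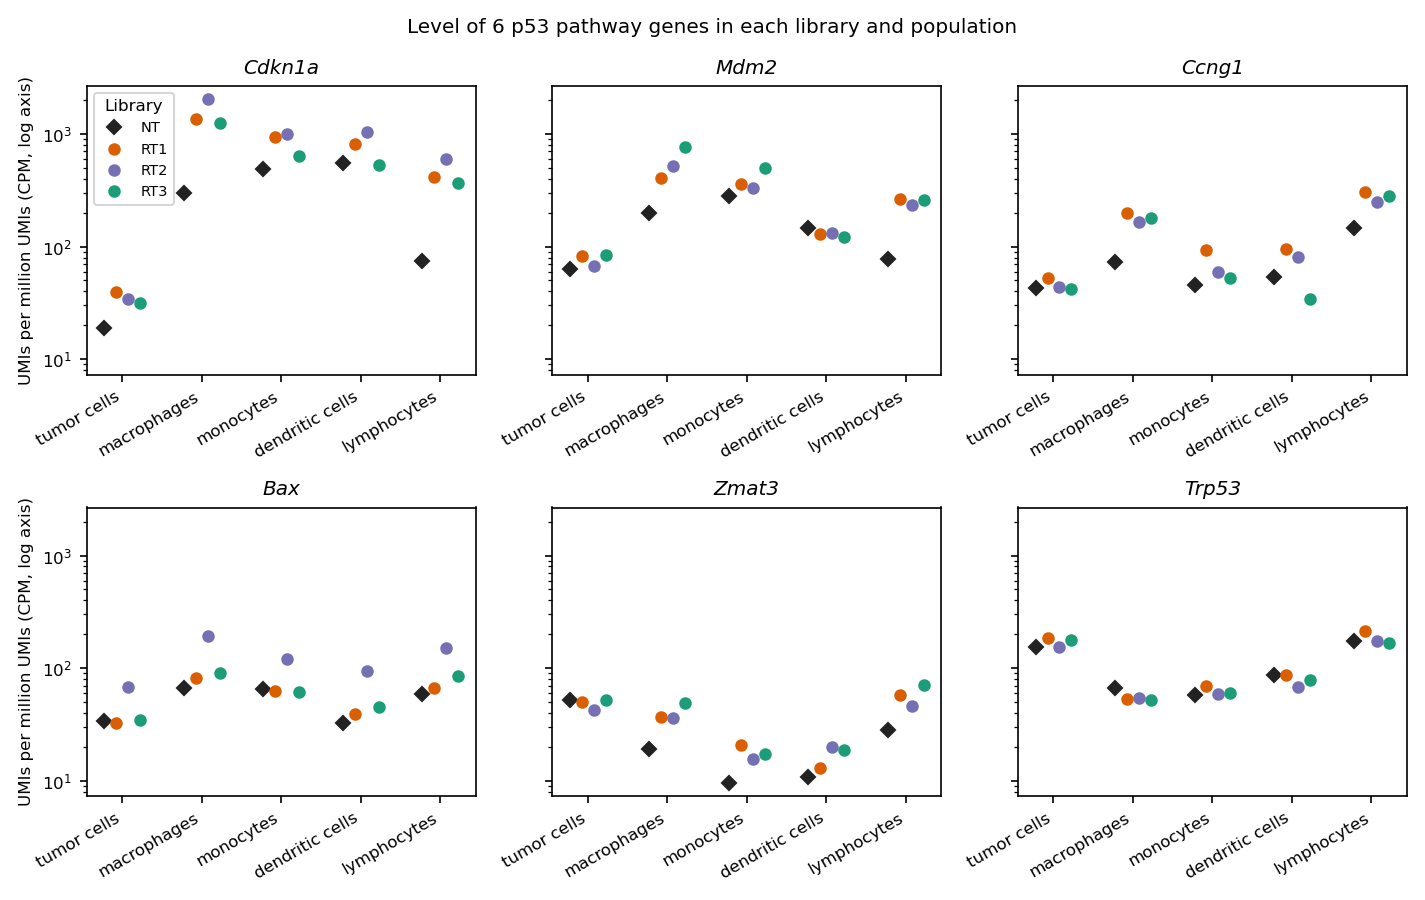
Level of 6 of the genes in CPM (log axis) in 5 cell types, with 1 point per library (diamond NT, circles RT1 to RT3). Cdkn1a lay lowest in tumor cells, between 18.8 and 39.7 CPM, and reached 2044 CPM in macrophages of RT2, while Bax was highest in RT2 in every cell type shown.

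Over the 4 libraries Cdkn1a was 33.8 times as high in macrophages as in tumor cells, a mean difference of 5.08 ± 0.79 on the log2 scale (SD, n = 4 libraries), with macrophages higher in 4 of 4. Monocytes exceeded tumor cells by 4.62 ± 0.23 and lymphocytes by 3.27 ± 0.91, also in 4 of 4 libraries. The lymphocyte difference was 2.00 in NT and 3.39, 4.15 and 3.54 in the RT libraries. Ordered by mean log2 CPM over the libraries with at least 50 cells, endothelial cells and macrophages came first, then monocytes, dendritic cells, fibroblasts, neutrophils, lymphocytes and tumor cells. Endothelial cells had 2 such libraries, both RT, and in both of them macrophages were higher, so their place at the head of the order comes from the libraries averaged. Fibroblasts had 2 and neutrophils 3, also RT only. In NT alone, dendritic cells (549 CPM) and monocytes (492 CPM) were above macrophages (302 CPM). Macrophages and monocytes differed by 0.46 ± 0.81 and monocytes and dendritic cells by 0.05 ± 0.21, within their spread. Neutrophils and lymphocytes differed by -0.00 ± 0.27 over 3 libraries. The step from lymphocytes to tumor cells was the only one between neighbours measured in 4 libraries that kept its direction in all 4. Because these are sums over cells, fewer cells that use a gene and less of its RNA per cell cannot be told apart.

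In tumor cells, 2 of the 10 genes were called higher, Cdkn1a and Aen, where 7.60% of the 13054 measured genes were called higher and 1.30% lower. None was called lower. The median ratio of the 10 genes was 0.21, against -0.02 over all measured genes. Aen, a nuclease that takes part in p53-driven apoptosis, had 7.63 CPM in NT against 18.7, 18.6 and 14.1 CPM across RT1 to RT3, a ratio of 1.15 ± 0.24. Every RT library exceeded NT for both genes. The other genes stayed within 1.5-fold of NT in at least 1 RT library. Mdm2 had 63.8 CPM in NT against 82.1, 67.0 and 84.98 CPM in the RT libraries. Trp53 had 155.0 CPM in NT against 183, 155.0 and 177 CPM across RT1 to RT3, with NT and RT2 at the same level. Zmat3, an RNA-binding zinc finger protein, had 52.6 CPM in NT against 49.7, 42.6 and 52.2 CPM in the RT libraries, all at or below NT. The ratios of Ccng1, Phlda3 and Eda2r were 0.09 ± 0.17, -0.18 ± 0.27 and 0.04 ± 0.34, no larger than their spread. Trp53inp1 had only 1.36 CPM in NT against 1.599, 2.00 and 1.99 CPM in the RT libraries.

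UMIs of leukocytes moved with these values. Their part in the ratios was not tested beyond the cells without them. The summed level of 6 leukocyte genes (Ptprc, Tyrobp, Fcer1g, Lyz2, Cd74 and Laptm5) in tumor cells was 20.9 CPM in NT against 87.5, 98.5 and 47.1 CPM across RT1 to RT3. All 6 were above 0 in every library, and Lyz2 was the most abundant, at 10.4 CPM in NT against 65.5, 60.2 and 30.0 CPM in the RT libraries. Tumor cells without any UMI of these genes were 86.2% of the class in NT and 61.6%, 46.3% and 74.6% in the RT libraries. In those cells the Cdkn1a ratio was 0.82 and the Aen ratio 1.12, and only Aen was called higher, where 6.02% of 12266 genes were called higher and 1.30% lower.

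Tumor cells fell into 14 sub-clusters when clustered again, and 13 of them had at least 50 cells in each library. Cdkn1a was above NT in all 3 RT libraries in 13 of these 13 and Aen in 12. The mean Cdkn1a ratio ran from 0.13 in sub-cluster 5, led by ribosomal genes such as Rpl35 and Rps18, to 2.37 in sub-cluster 2, led by Dpt and Fn1. Sub-cluster 5 had 35.1 CPM of Cdkn1a in NT and 38.6, 37.8 and 38.7 CPM in the RT libraries, so its NT level was already near the RT level. Sub-cluster 2 had 4.21 CPM in NT, from 37 UMIs, and 25.1, 21.5 and 19.6 CPM in the RT libraries. Among these 13 the highest mean level over libraries, 73.9 CPM, was in sub-cluster 12, whose leading genes Bnip3, Adm, Vegfa and Slc2a1 are known to respond to low oxygen. Sub-clusters 0 and 1, both with the DNA replication genes Rrm2 and Pclaf among their leading genes, had mean levels of 30.7 and 45.0 CPM. The lowest mean level among the 13, 10.8 CPM, was in sub-cluster 4, led by the matrix genes Lum, Mmp2 and Fbn1. Compared only with the other tumor sub-clusters, sub-clusters 2, 4 and 10 scored nearest to the fibroblast markers and sub-cluster 13 nearest to the macrophage markers, although the clusters they were drawn from were named tumor cells. Zmat3 lay below NT in all 3 RT libraries in 9 of the 13 sub-clusters and above it in 0. Phlda3 lay above NT in all 3 in 3 of the 13 and below it in 2, with mean ratios from -0.80 to 0.41. Its mean level was highest in sub-cluster 5, at 47.3 CPM, and lowest in sub-cluster 4, at 6.95 CPM. Sub-cluster 5 held 779 cells in NT against 267, 434 and 644 in the RT libraries. Sub-cluster 4 held 491 against 983, 1253 and 877. The part of this makeup in the ratios of the whole class was not tested.

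**Figure D2:**
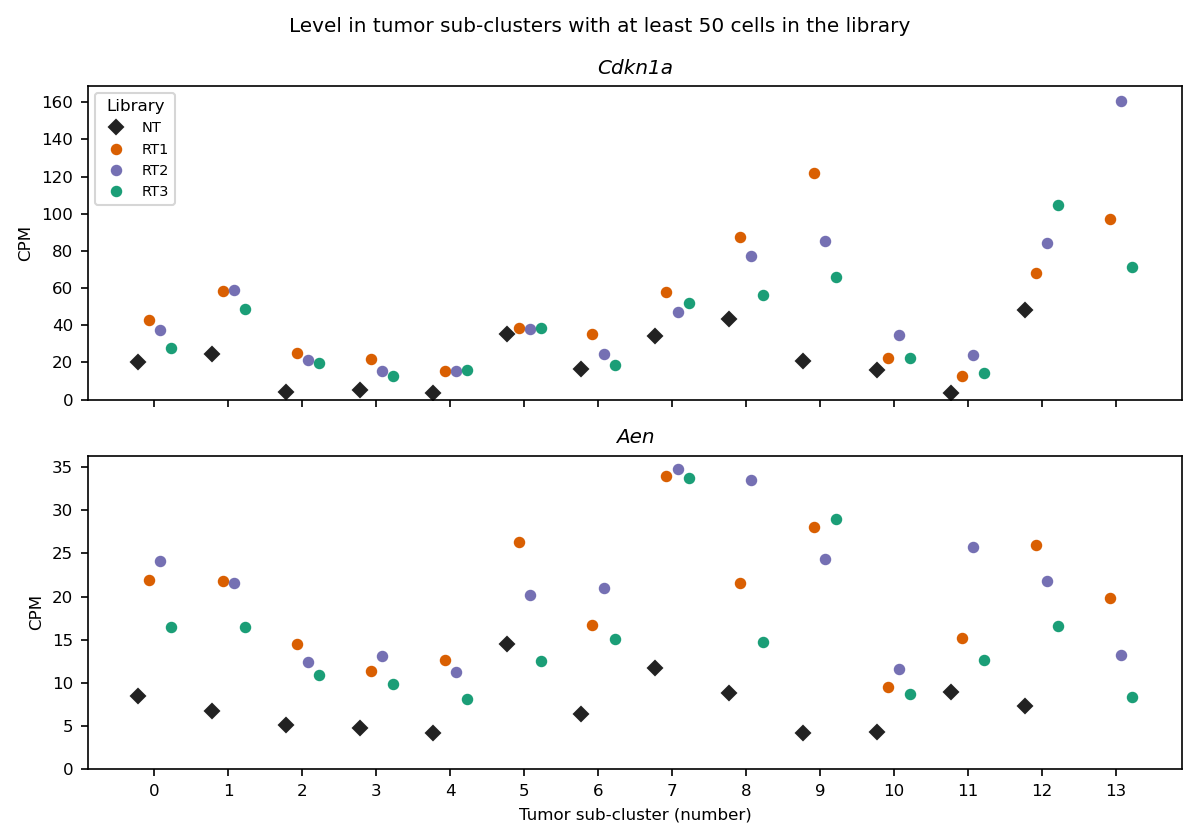
Level of Cdkn1a and Aen in CPM (linear axes from 0) in each tumor sub-cluster, by number, with 1 point per library holding at least 50 of its cells (diamond NT, circles RT1 to RT3). In sub-cluster 5 the 4 Cdkn1a points lie between 35.1 and 38.7 CPM, whereas in sub-cluster 2 NT is at 4.21 CPM and the RT libraries are at 19.6 CPM or more.

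In macrophages, 9 of the 10 genes could be measured and 7 were called higher: Cdkn1a, Mdm2, Ccng1, Phlda3, Aen, Trp53inp1 and Zmat3. Of the 9133 genes measured there, 7.28% were called higher and 7.15% lower. The median ratio of the 9 genes was 1.31, against -0.03 over all measured genes. Macrophage markers other than C1qa also lay above NT in every RT library. Among them, C1qb had 1822 CPM in NT against 3843, 4909 and 3596 CPM. Apoe had 1264 CPM against 2187, 3151 and 2818 CPM, and Mrc1 828 CPM against 2354, 1063 and 1337 CPM. The part of this shift in the ratios was not tested. Mdm2 had 201 CPM in NT against 407, 515 and 775 CPM across RT1 to RT3. Ccng1, the cyclin G1 that takes part in the loop between p53 and Mdm2, had 73.0 CPM in NT against 199, 166 and 179 CPM in the RT libraries. Groups did not overlap for either gene, and the ratios were 1.44 ± 0.47 and 1.31 ± 0.13.

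Phlda3, a repressor of AKT signaling, had 3 UMIs in macrophages of NT, 1.17 CPM (0.242 to 3.42), against 207, 680 and 155 UMIs in the RT libraries, 23.8, 52.0 and 35.0 CPM. The ratio to NT was 20.3-fold in RT1 (exact 95% counting interval 6.85 to 99.2), 44.4-fold in RT2 (15.1 to 216) and 29.9-fold in RT3 (10.03 to 146). The width of these intervals comes from the NT count of 3. Trp53inp1, a nuclear protein that promotes p53 activity, had 6.64 CPM in NT against 27.0, 33.7 and 49.6 CPM in the RT libraries, a ratio of 2.39 ± 0.45. Zmat3 had 19.1 CPM in NT against 36.5, 36.2 and 49.4 CPM across RT1 to RT3. Aen had 8.59 CPM in NT against 17.7, 22.3 and 18.0 CPM in the RT libraries. For all 3 of these genes each RT library lay above NT. Trp53 differed in direction from its targets, with 67.2 CPM in NT against 52.9, 53.7 and 52.6 CPM in the RT libraries, a ratio of -0.34 ± 0.02 that is smaller than 1.5-fold.

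The macrophages comprised 3 clusters, and the largest, led by Ccl8, Folr2 and Ms4a7, held 66.3% of them in NT and 72.6%, 70.8% and 69.4% across RT1 to RT3. In that cluster alone 8 of 9 measured genes were called higher, with a median ratio of 1.52. Of 8520 genes there, 8.38% were called higher and 7.99% lower. Phlda3, among the 8, had 1 UMI there in NT, so it was measured only through its RT level. Cdkn1a had 261 CPM there in NT and 1384, 2130 and 1302 CPM in the RT libraries. The second cluster, led by Lyve1 and Mrc1, had 3 of 4 called higher with a median of 1.32, where 9.95% of 1870 genes were called higher and 7.75% lower. The third cluster, led by Cd52, Ftl1 and Ctsd, made up 13.8% of macrophages in NT and 4.67%, 8.28% and 10.9% across RT1 to RT3. There 4 of 6 were called higher with a median of 0.92, where 5.39% of 4266 genes were called higher and 3.84% lower. Phlda3, among the 4, had 2 UMIs there in NT and was likewise measured only through its RT level. The Cdkn1a level of the third cluster was already 605 CPM in NT, against 1111, 1420 and 1141 CPM in the RT libraries. The 6 tumor markers summed to 278 CPM in macrophages of NT and to 255, 268 and 331 CPM across RT1 to RT3, with none at 0 and Ccnd1 the most abundant. Rhox5 was at 41.8 CPM there in NT and at 62.7, 54.2 and 82.1 CPM across RT1 to RT3. The part of these UMIs in the ratios was not tested beyond leaving out cells with Rhox5. Without macrophages holding a Rhox5 UMI the same 7 genes were called higher, where 6.94% of 8818 genes were called higher and 7.95% lower.

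In lymphocytes, 9 of the 10 genes could be measured and 6 were called higher: Cdkn1a, Mdm2, Ccng1, Phlda3, Aen and Zmat3. Of the 7251 genes measured in lymphocytes, 4.88% were called higher and 4.26% lower. The median ratio was 1.00, against -0.13 over all measured genes. The makeup of the class differed between libraries: named NK cells were 96 of its 381 cells in NT and 163 of 359, 202 of 601 and 130 of 341 in the RT libraries. The T cell gene Trac was at 621 CPM in NT against 157, 353 and 205 CPM, and the granzyme gene Gzma at 1460 CPM in NT against 4473, 3331 and 2610 CPM. Of the other markers, Cd3e was below NT in every RT library, and Nkg7, Ncr1 and Il2rb were above it. The T cell genes Cd3g, Cd3d and Cd8a lay on both sides of NT, Cd3g with 168 CPM in NT against 211, 337 and 153 CPM. The part of this makeup in the ratios of the whole class was not tested beyond the named cells given separately. Mdm2 had 77.2 CPM in NT against 263, 236 and 261 CPM across RT1 to RT3, a ratio of 1.71 ± 0.09. Aen had 10.2 CPM in NT against 30.7, 44.0 and 31.8 CPM in the RT libraries, from 9 UMIs in NT. Both genes were higher in 3 of 3 RT libraries. Phlda3 rested on 7 UMIs in NT against 10, 63 and 15 across RT1 to RT3, and its intervals of 3.20 to 16.4 CPM in NT and 6.13 to 23.5 CPM in RT1 overlap. With 5 UMIs added Phlda3 and Zmat3 were not called, at ratios of 0.80 and 0.86 against 1.15 and 1.00. Phlda3 was not called without the 8% of cells with most UMIs, although its ratio there was 1.06. Trp53inp1 had 39.7 CPM in NT against 49.9, 53.1 and 64.6 CPM in the RT libraries, and was called higher in macrophages but not here. The difference between its macrophage and lymphocyte ratios was not tested. Ccng1 had 146 CPM in lymphocytes of NT and 308, 249 and 281 CPM in the RT libraries, and Zmat3 had 28.4 CPM against 57.5, 46.4 and 71.0 CPM. All RT values of both genes exceeded NT. Trp53 had 173 CPM in NT, inside the RT range of 166 to 212 CPM.

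Lymphocytes also carried RNA of other cells. The summed level of the 6 tumor markers was 661 CPM in NT against 526, 438 and 686 CPM across RT1 to RT3, with Rhox5 the most abundant in every library. Krt18 was at 0 in NT and RT3 and Tnfrsf12a in RT1. Lyz2, a myeloid gene, was at 97.6 CPM in lymphocytes of NT and at 1052, 660 and 215 CPM in the RT libraries. Without the lymphocytes holding a Rhox5 UMI, 5 of 8 measured genes were called higher, and Phlda3 had too few UMIs to be measured. Of all 5851 genes measured in those cells, 4.87% were called higher and 4.82% lower. Clustered again, the lymphocytes held 4 NK cell sub-clusters, 1 of CD8 T cells, 1 of regulatory T cells and 1 left unnamed. Another 4 scored nearest to fibroblasts, neutrophils, macrophages and mast cells. The macrophage-like one, led by Ccl6 and Lyz2, had 57 cells. The fibroblast-like one, with Rhox5 and Col3a1 among its leading genes, had 113 cells at a median of 7153 UMIs. It held 26 cells in NT against 24, 33 and 30 across RT1 to RT3. The unnamed, neutrophil-like and mast-cell-like ones had 272, 77 and 21 cells. In the sub-clusters named NK, CD8 T or regulatory T cells alone, 5 of 8 measured genes were called higher, Cdkn1a, Mdm2, Aen, Bax and Zmat3, where 4.89% of 5506 genes were called higher and 5.96% lower. The Ccng1 ratio was 0.81 there, without a call, and 0.92 in all lymphocytes. The Trp53inp1 ratio was 0.01 there and 0.47 in all lymphocytes. Bax was called there and not in all lymphocytes. In cells named NK cells by their markers, Lyz2 was at 46.0 CPM in NT against 126, 110 and 50.5 CPM in the RT libraries, and 3 of 5 measured genes, Cdkn1a, Mdm2 and Bax, were called higher (background 5.12% higher and 5.97% lower of 2913 genes). NK cells had 97.0 CPM of Cdkn1a in NT, from 19 UMIs, and 448, 525 and 361 CPM in the RT libraries. In CD8 T cells 3 of 4 measured genes were called higher, Cdkn1a, Mdm2 and Ccng1, where 5.45% of 1671 genes were called higher and 4.13% lower. Cdkn1a had 40.9 CPM in CD8 T cells of NT, from 7 UMIs, and 353, 738 and 474 CPM across RT1 to RT3. In the same cells Lyz2 was at 11.7 CPM in NT against 157, 140 and 81.1 CPM. Rhox5 was at 23.4 CPM there in NT against 78.3, 48.1 and 118.5 CPM. The part of these UMIs in the CD8 T cell ratios was not tested. Regulatory T cells had 107 CPM of Cdkn1a in NT, from 12 UMIs, and 635, 255 and 428 CPM in the RT libraries, but under 50 cells in RT1 and RT3. Their Lyz2 level was 17.85 CPM in NT against 224, 124 and 114 CPM.

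**Figure D3:**
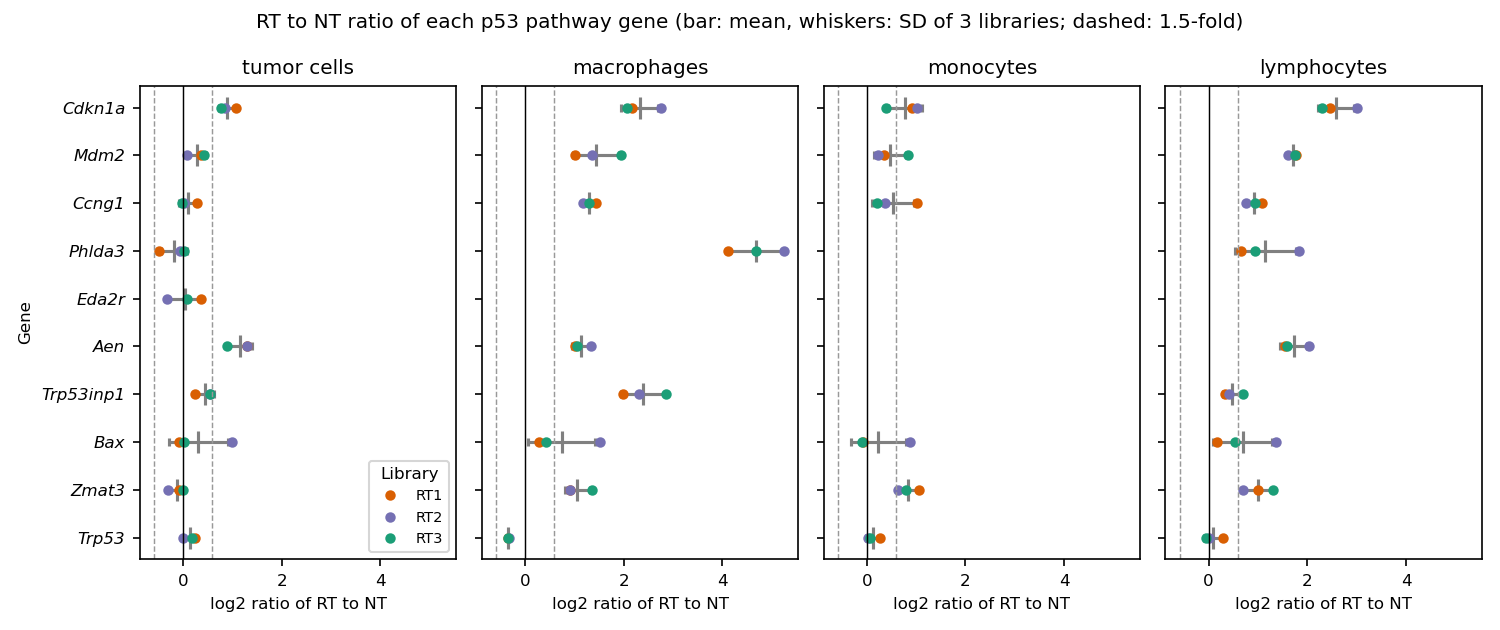
log2 ratio of RT to NT for each of the 10 genes in 4 cell types, with 1 circle per RT library, a bar at the mean and whiskers for the SD of 3 libraries. Dashed lines mark 1.5-fold, and genes with too few UMIs are left blank. In macrophages 7 of 9 measured genes lie past the right line in every library, in lymphocytes 6 of 9, in tumor cells 2 of 10 and in monocytes 1 of 6, where 7.28%, 4.88%, 7.60% and 9.20% of all measured genes do.

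Monocytes of NT had 492 CPM of Cdkn1a, more than macrophages of NT. Of the 10 genes 6 could be measured there, and 1, Zmat3, was called higher, where 9.20% of 6710 genes were called higher and 3.35% lower. The median ratio was 0.50, against 0.08 over all measured genes. Of the 6 monocyte markers 4 were above NT in every RT library, among them Chil3 with 186 CPM in NT against 711, 756 and 2474 CPM, Ly6c2 with 645 CPM against 1425, 1634 and 2094 CPM, and Vcan with 152 CPM against 606, 377 and 654 CPM. The most abundant, Thbs1, had 7615 CPM in NT against 7676, 4963 and 9717 CPM, and the part of this shift in the ratios was not tested. Zmat3 had 9.55 CPM in NT, from 9 UMIs, and 20.8, 15.6 and 17.4 CPM across RT1 to RT3. The call was lost without cells holding a Rhox5 UMI, where the ratio was 0.68 and where 9.46% of 6449 genes were called higher and 3.55% lower. It was also lost with 5 UMIs added, where the ratio was 0.37. Without integration of the libraries Zmat3 was not called although its ratio was 0.88, against 0.83 with integration, and Aen was measured and called. With a minimum of 3 expected UMIs 3 of 9 measured genes were called, Phlda3, Aen and Zmat3, the first from 0 and the second from 4 UMIs in NT, where 10.7% of 9215 genes were called higher and 5.37% lower. Mdm2 had 282 CPM in NT against 362, 331 and 504 CPM in the RT libraries, all above NT and past 1.5-fold in RT3 only. Ccng1 was at 45.6 CPM in NT, below the RT values of 93.5, 59.6 and 53.2 CPM. Trp53 lay at 57.3 CPM in NT and between 58.6 and 69.8 CPM in the RT libraries. Phlda3 was at 0 UMIs in monocytes of NT and at 26, 56 and 14 UMIs in the RT libraries. The exact interval of that count of 0 in NT ends at 3.91 CPM. The exact interval of RT3, 2.66 to 8.16 CPM, reaches below that level, and those of RT1 and RT2 begin at 4.84 and 7.27 CPM.

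In dendritic cells 4 of the 10 genes could be measured and 0 were called, where 6.14% of 2783 genes were called higher and 6.29% lower. NT had 81 dendritic cells, and Mdm2 had 145 CPM (95.8 to 211.5) in NT, from 27 UMIs, against 130, 131 and 121 CPM in the RT libraries. The NT interval holds all 3 RT values. All 3 RT libraries lay below NT for Mdm2, by a ratio of -0.20 ± 0.06. Markers moved with it: Ccr7, the receptor of migrating dendritic cells, was at 2596 CPM in NT against 1103, 912 and 1403 CPM in the RT libraries. Rhox5 was at 37.7 CPM in dendritic cells of NT against 161, 49.8 and 290 CPM, and Lyz2 at 598 CPM against 2050, 721 and 1048 CPM. The 6 tumor markers summed to 447 CPM in NT against 478, 429 and 754 CPM, with Ccnd1 the most abundant except in RT3 and with Tnfrsf12a at 0 in RT1. The part of these in the Mdm2 values was not tested. Endothelial cells numbered 32 in NT and 87, 115 and 28 across RT1 to RT3, too few in NT for a ratio. Cdkn1a had 17 UMIs there in NT, 100.0 CPM, and 855, 1315 and 625 CPM in the RT libraries. Eda2r, a receptor of the tumor necrosis factor family, was at 0 UMIs in endothelial cells of NT and at 38.6, 46.7 and 44.6 CPM across RT1 to RT3. Its mean level over libraries was 5.42 CPM in tumor cells, and macrophages of the 4 libraries held 0, 8, 7 and 1 of its UMIs. Fibroblasts numbered 4 in NT and 19, 63 and 67 in the RT libraries, where Cdkn1a had 982, 727 and 622 CPM. In the 4 cells of NT it had 0 UMIs (0 to 86.2 CPM). The fibroblasts of RT3 all came from a different cluster than those of the other libraries. Neutrophils numbered 20 in NT, with 3 UMIs of Cdkn1a, and held 512, 513 and 351 CPM in the RT libraries.

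Bax, a pore-forming protein of the mitochondrial death pathway, was highest in RT2. In tumor cells it had 34.2 CPM in NT, 32.3 in RT1, 68.2 in RT2 and 34.6 CPM in RT3. By tumor sub-cluster, Bax lay above NT in all 3 RT libraries in 10 of 13 and below in 1, past 1.5-fold in all 3 in 0. In sub-cluster 0 its ratios were 0.30, 1.35 and 0.27. Its mean level was highest in sub-cluster 5, at 96.9 CPM, with ratios of -0.46, 0.09 and -0.31. That sub-cluster held 779 cells in NT against 267, 434 and 644 in the RT libraries. The part of this makeup in the class values was not tested. The Bax level of macrophages was 66.8 CPM in NT against 81.8, 193 and 89.8 CPM in the RT libraries. RT2 was the highest library in tumor cells, macrophages, monocytes and lymphocytes, and Bax was called higher in none of these 4. It was called higher in parts of them, with 40.8 CPM in NT against 74.6, 149.8 and 96.0 CPM in NK cells, from 8 UMIs in NT. In the largest macrophage cluster it had 39.9 CPM in NT against 78.4, 188 and 75.2 CPM, a mean ratio of 1.37. In the second macrophage cluster it had 82.2 CPM in NT against 43.6, 143 and 56.8 CPM, and in the third 230 CPM against 190, 269 and 212 CPM, so RT1 and RT3 lay below NT in both. In the named lymphocyte sub-clusters its ratio was 1.32. RT2 was the highest library in NK cells and in all 3 macrophage clusters too. Over these 4 cell types, 29 of 5850 genes measured in all of them, 0.496%, exceeded each other library by 1.5-fold in RT2 in every type, and Bax was the only one of the 10. RT1 and RT3 had 0 such genes and NT had 7. The part of the different RT2 table in this was not tested. Without RT2 the Bax ratio over the whole class was -0.03 in tumor cells, -0.09 in monocytes, 0.36 in macrophages and 0.35 in lymphocytes. The tumor value is a sum over the sub-clusters, of which 10 of 13 had Bax above NT in all 3 RT libraries.

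Trp53 was ordered differently from Cdkn1a. Its mean level was 181 CPM in lymphocytes, 167 in tumor cells, 147 in endothelial cells, 104 in neutrophils, 81.6 in dendritic cells, 61.5 in monocytes, 56.4 in macrophages and 52.9 CPM in fibroblasts. Endothelial cells and fibroblasts had 2 libraries with enough cells and neutrophils 3, all RT, as for Cdkn1a. Lymphocytes and tumor cells differed by 0.12 ± 0.13 on the log2 scale, with lymphocytes higher in 3 of 4 libraries. Tumor cells were above macrophages in 4 of 4 libraries, where the log2 difference of macrophages from tumor cells was -1.57 ± 0.27. For Zmat3 and Eda2r, too, tumor cells were above macrophages and monocytes in all 4 libraries, while their other places in the order differed from those of Trp53. For Mdm2, Ccng1, Bax and Trp53inp1, as for Cdkn1a, macrophages, monocytes and lymphocytes were above tumor cells in all 4 libraries. Among these 3 classes the highest mean level was in macrophages for Mdm2 and Bax and in lymphocytes for Ccng1 and Trp53inp1.

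Other p53 genes were taken from lists written from general knowledge of the pathway. Leaving out genes that p53 represses, they held 44 genes found in all tables. In tumor cells 39 were measured, 3 were called higher and 1 lower, with a median ratio of 0.06, beside 7.60% and 1.30% of all measured genes. These counts are near the shares over all genes, so the genes named next describe single genes and not the lists. Gadd45a, a damage-induced growth arrest gene, had 133 CPM in NT against 292, 312 and 282 CPM across RT1 to RT3, a ratio of 1.15 ± 0.07. Sesn1, a stress-induced regulator of mTOR signaling, had 14.2 CPM in NT against 38.5, 38.1 and 28.7 CPM in the RT libraries. Ephx1, an epoxide hydrolase, had 28.2 CPM in NT against 45.6, 56.1 and 48.8 CPM across RT1 to RT3. All 3 lay above NT in every RT library. Tnfrsf10b, the receptor of the death ligand TRAIL, was the gene called lower, with 54.1 CPM in NT against 28.9, 27.4 and 33.5 CPM in the RT libraries. By list, arrest and stress genes in tumor cells had a median of 0.47, from -0.53 for Btg2 to 1.64 for Plk2. Death genes had a median of 0.00, from -0.87 for Bbc3 to 0.73 for Pmaip1, and the difference was not tested. Plk2 was scarce in tumor cells of NT and abundant in macrophages, as given below. Leukocyte UMIs in tumor cells were higher in every RT library than in NT, and their part in the Plk2 ratio was not tested.

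In macrophages 32 of the 44 genes were measured, 3 were called higher and 1 lower, again near the 7.28% and 7.15% over all genes. Ephx1 had 11.7 CPM in NT against 87.3, 88.4 and 88.2 CPM in the RT libraries, a ratio of 2.89 ± 0.01. Slc19a2, a thiamine transporter, had 7.42 CPM in NT against 17.8, 19.2 and 23.5 CPM, and the death receptor Fas had 14.4 CPM in NT against 22.6, 29.0 and 28.7 CPM. Pmaip1, the BH3-only protein Noxa, was lower, with 363 CPM in NT against 132, 167 and 172 CPM in the RT libraries. In lymphocytes 30 were measured, 7 were called higher and 0 lower, beside 4.88% and 4.26% of all genes. The largest ratios were those of Bbc3, the BH3-only protein Puma, at 1.29 ± 0.26, then Gadd45a, Polk, Sesn1, Mdm4 and Ei24, at 0.86 to 1.11. In monocytes 23 were measured, Apaf1, Steap3 and Gadd45a were called higher, and Bbc3 and Pmaip1 lower, beside 9.20% and 3.35% of all genes. Bbc3 thus had 21.6 CPM in NT against 49.9, 46.9 and 65.7 CPM in the RT libraries in lymphocytes, but 59.4 CPM in NT against 14.5, 23.2 and 25.7 CPM in monocytes.

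Cell cycle genes that p53 lowers through p21 and the DREAM complex formed a list of 10. In macrophages all 10 were measured and 8 were called lower, among them Mki67 with 69.1 CPM in NT against 15.4, 11.8 and 17.6 CPM across RT1 to RT3, and Top2a with 127 CPM in NT against 38.4, 25.2 and 32.5 CPM. Their median ratio was -1.88. Of all genes in macrophages, 7.15% were called lower. By cluster, 9 of 9 measured were called lower in the largest, 2 of 3 in the second and 0 of 3 in the third, where 7.99%, 7.75% and 3.84% of all genes were. In the third cluster Top2a was above NT in each RT library, with 23.9 CPM in NT, from 8 UMIs, and 35.2, 51.4 and 53.6 CPM in the RT libraries. In tumor cells 1 of 10, Mki67, was called lower, with 106 CPM in NT against 68.0, 44.1 and 67.1 CPM in the RT libraries, and the median was -0.28, where 1.30% of all genes were called lower. In lymphocytes 1 of 10, the mitotic kinase Plk1, was called lower, with a median of -0.51, beside 4.26% of all genes. Within lymphocytes, 5 of the list were measured in NK cells, all with a ratio above 0, with a median of 0.34 and 1, Cdk1, called higher where 5.12% of all genes were. The NK sub-cluster led by Fbxo5, Shcbp1 and Cdk1 held 6 of 96 NK cells in NT. In the RT libraries it held 20 of 163, 23 of 202 and 20 of 130, and the part of this in the ratios was not tested. In CD8 T cells 5 were measured, 0 had a ratio above 0, the median was -0.74 and 1, Plk1, was called lower where 4.13% of all genes were. In monocytes 8 were measured, the median was -0.11 and 1, Ccnb2, was called higher, with 8.49 CPM in NT and 26.8, 24.1 and 16.0 CPM in the RT libraries, beside 9.20% of all genes. A single call among 5 to 10 genes is no result about the list.

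**Figure D4:**
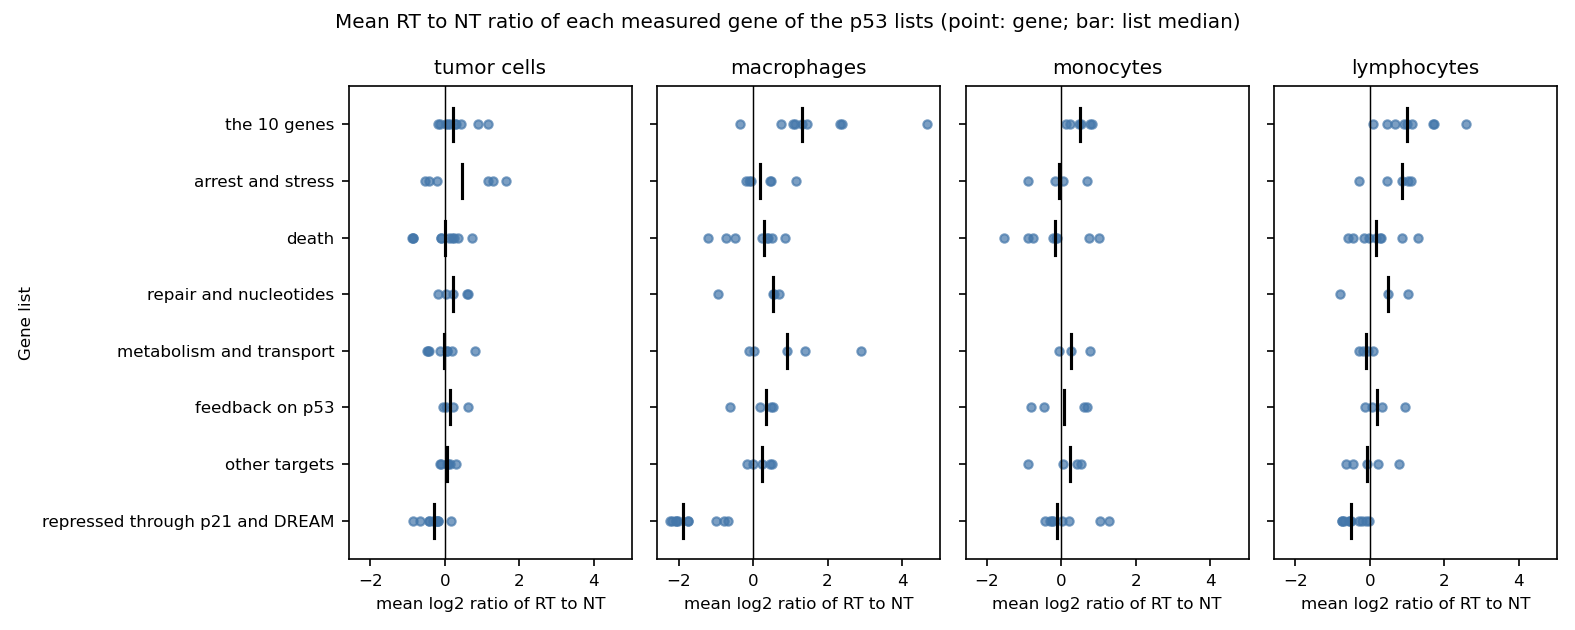
Mean log2 ratio of RT to NT for each measured gene of the 10 genes and of the wider p53 lists in 4 cell types, with 1 point per gene and a bar at the list median. The list repressed through p21 and DREAM has its lowest median, -1.88, in macrophages, where the 10 genes have a median of 1.31.

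The genes whose level followed that of Cdkn1a most closely over 27 combinations of cell type and library, among 3046 genes with enough UMIs, were Icam1, Plk2, Egr1, Slfn5 and Rnf130, with Pearson r from 0.902 to 0.921. Mdm2 came 82nd with 0.754, and Trp53 had -0.622. The points share libraries and cell types, and cell types differ widely in level, so these values are a description. Plk2, a p53-responsive kinase, was at 1.09 CPM in tumor cells of NT and at 1600 CPM in macrophages of NT.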

How the data were processed

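Counts of UMIs per gene and cell were deposited by the authors without normalization, 1 table per library, from the SeekOne MM 3′ kit. The submitters' processing notes name STAR 2.5.1b, Subread 1.6.4, featureCounts, Cell Ranger and the build GRCm39, with no role given for each. Only GRCm38 sequences were on hand, so coordinates are those of the RefSeq windows alone. Tables were joined on symbols. A 3′ tag does not separate genes that share reads with close copies.

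Barcodes were used when they had 200 genes or more and no more than 20% of UMIs from mitochondrial genes, applied to the 10141, 15346, 14994 and 15324 barcodes of NT, RT1, RT2 and RT3. The 2000 most variable genes outside the p53 lists were reduced to 30 principal components, integrated over libraries with a rewritten Harmony, and clustered by Leiden (leidenalg 0.10.2) at resolution 0.8. No doublet caller was run. Instead, cells with markers of another class, or the 8% of cells with most UMIs, were left out in turn. Clusters took their class from fixed markers, but the scoring rule was changed after the clusters were seen: a class is scored by each marker's level relative to its highest cluster. A shallow cluster nearest to tumor cells and a cluster of mixed tumor and macrophage genes stayed unnamed and were left out. The shallow one held 953 cells in NT and 1478, 1505 and 1641 across RT1 to RT3. The mixed one held 76 cells in NT and 338, 307 and 260 in the RT libraries. Unnamed sub-clusters of the stromal cells were left out too. The largest of these scored nearest to fibroblasts, was led by myeloid genes such as Ctss, and held 3 cells in NT and 40, 44 and 87 across RT1 to RT3.

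The genes, the wider lists and the markers were chosen with earlier results of these data known. Named genes are all 10, and of the wider lists those past 1.5-fold in every RT library (at most 6 per direction) or at the ends of a list in tumor cells, with the 5 genes most like Cdkn1a. The ratio calculation was tested on simulated data. Alternatives were another scaling, cell weighting, mitochondrial limit, integration, resolution, UMI minimum, added count and each RT library left out.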

Additional observations from a re-analysis of the deposited data

Results flagged for a closer look

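In all, 4 differences between cell types were set apart because every RT library lay on one side of NT in one cell type and on the other side in tumor cells. None of these differences was tested, since NT is a single library. The Zmat3 ratio exceeded that of tumor cells by 1.19 on the log2 scale in macrophages, by 0.96 in monocytes and by 1.13 in lymphocytes. In tumor cells the Zmat3 ratios were -0.08, -0.30 and -0.01 in RT1, RT2 and RT3, so RT3 lay close to NT. The Mdm2 ratio of dendritic cells lay below that of tumor cells, with a difference of -0.48, from 27 Mdm2 UMIs in dendritic cells of NT. In the same dendritic cells Rhox5 was at 37.7 CPM in NT against 161, 49.8 and 290 CPM in the RT libraries, Lyz2 at 598 CPM against 2050, 721 and 1048 CPM, and Ccr7 at 2596 CPM against 1103, 912 and 1403 CPM. Their part in the difference was not tested.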

How the results depend on the processing

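The median ratio and the number of genes called higher were recomputed in tumor cells, macrophages, monocytes and lymphocytes under 12 other settings each, with 8 further values from settings chosen after seeing the data (the largest macrophage cluster, the named lymphocyte sub-clusters, and tumor cells with a shallow cluster added or with their myeloid-led and shallow sub-clusters left out). No median changed sign, and 96 of 104 values stayed within the spread of the RT libraries or, for counts, within 1.5-fold. Without cells holding markers of another class, 1 gene (Aen) was called higher in tumor cells and 0 in monocytes. Without integration the 1 gene called in monocytes was Aen, and Zmat3 was not called at a ratio of 0.88, against 0.83 with integration. Monocytes gave 3 of 9 measured genes with a minimum of 3 expected UMIs, where 10.7% of all genes were called higher, and 0 of 6 with 5 UMIs added. In lymphocytes the median was 1.46 as the mean of per-cell fractions and 1.53 in the named sub-clusters alone, and in the largest macrophage cluster it was 1.52. The causes were not tested. Leaving out 1 RT library gave medians of 0.17 to 0.22 in tumor cells, 1.19 to 1.37 in macrophages, 0.46 to 0.60 in monocytes and 0.92 to 1.08 in lymphocytes. It gave 2 to 2 genes in tumor cells, 7 to 7 in macrophages, 1 to 2 in monocytes (2 without RT3) and 5 to 6 in lymphocytes. The 5 in lymphocytes came without RT2, where 8 were measured and Phlda3 was not. With 1 RT library left out, a gene had fewer libraries in which to pass the fold. Shares of all genes called are not given for those settings, for no integration or for 5 UMIs added. The counts there cannot be set against all genes. No paired analysis was possible because NT is 1 library. Depth limited Eda2r in every cell type given ratios but tumor cells, and Phlda3, Aen and Trp53inp1 in monocytes. In dendritic, NK and CD8 T cells it limited all of these and Zmat3, and in dendritic and CD8 T cells Bax too.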

Other observations

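A pair of tumor sub-clusters was apart from the rest. Sub-cluster 13, led by the myeloid genes Il1b, Srgn and Lyz2, held 26 cells in NT against 70, 77 and 51 across RT1 to RT3. Its Cdkn1a level was 15.7 CPM in NT, from 3 UMIs, against 97.3, 161 and 71.4 CPM in the RT libraries, and its leukocyte genes summed to 660 CPM in NT and 1577, 1026 and 868 CPM. Sub-cluster 9, whose cells had a median of 853 UMIs, had 20.9 CPM of Cdkn1a in NT, from 5 UMIs in 187 cells, against 122, 85.2 and 66.2 CPM in the RT libraries. Without both sub-clusters Cdkn1a and Aen were still called higher in tumor cells, and the share of all genes called is not given for this setting. In tumor cells without any UMI of the leukocyte genes only Aen was called, where 6.02% of 12266 genes were called higher.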
